A study of Mus musculus with 36 samples.

Results

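The red cell miRNAs described here are 5 mature miRNAs chosen by name: mmu-miR-451a, both arms of miR-144 (mmu-miR-144-3p and mmu-miR-144-5p) and both arms of miR-486 (mmu-miR-486ab-5p_merged and mmu-miR-486a-3p). They are 5 of the 1963 mature mouse miRNAs listed in the small RNA sequencing tables, of which 1574 had a read in at least 1 library. The entry mmu-miR-486ab-5p_merged, called miR-486-5p below, sums the identical 5′ arms of miR-486a and miR-486b. The choice by name used no threshold on a measured value.

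Small RNA was sequenced from the ventral and lateral prostate lobes of male mice of the strain labelled C56NL/6N, in 12 groups of 3 libraries. WT mice carried the normal Elac2 gene, KO mice lacked Elac2 in the prostate because a Cre driven by the probasin (Pb) promoter removed 1 of its exons, and A537T mice were homozygous in the whole body for a knock-in that replaces an alanine of ELAC2 with a threonine. Each genotype was sampled at 10 weeks and 30 weeks of age, without a transgene or heterozygous for the TRAMP transgene, which expresses the SV40 large and small tumour antigens from the probasin promoter in prostate epithelium. The groups are named WT, KO, A537T, WT-TRAMP, KO-TRAMP and A537T-TRAMP, and single libraries by the number in their column header. Elac2 mRNA is not a small RNA, so the deletion was not checked here. The deletion and the antigens are driven by a promoter of the prostate epithelium, so blood cells of KO mice are not their target, whereas blood cells of A537T mice carry the knock-in. The 3 WT libraries of an age and transgene are the control of both lines, and the comparisons of TRAMP and of age use the same 36 libraries again.

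miR-144 and miR-451a are cut from 1 transcript that is switched on by GATA1 as red cells mature, and miR-451a is unusual in that its hairpin is too short for Dicer and is cut by Argonaute 2. miR-486 lies in the gene of the red cell membrane protein ankyrin 1 and is made both in red cell precursors and in skeletal and heart muscle. Red cells of mammals lose their nucleus but keep miRNAs, so these molecules are widely used as markers of blood in tissue and plasma samples.

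The sequences are shown because the 3 mature miRNAs of the chromosome 11 locus do not resemble one another and can be told apart in sequencing, and because the hairpins show why miR-451a has no second arm to count. The mature forms are from RefSeq (GRCm38.p6), which held 3 of the 5 members, with the seed (bases 2 to 8) in capitals.
mmu-miR-451a: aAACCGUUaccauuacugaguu
mmu-miR-144-5p: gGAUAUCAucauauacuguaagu
mmu-miR-144-3p: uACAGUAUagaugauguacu
No other mature mouse miRNA of the RefSeq table had any of these 3 seeds. In the hairpins, also from RefSeq, the mature parts are in capitals.
Mir144: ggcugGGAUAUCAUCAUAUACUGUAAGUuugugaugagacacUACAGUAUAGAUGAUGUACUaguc
Mir451a: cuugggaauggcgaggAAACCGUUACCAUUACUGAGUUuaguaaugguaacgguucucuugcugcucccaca
In Mir144 the arms stand on the 2 sides of the loop. In Mir451a the single mature miRNA starts in the 5′ stem and runs into the loop, with no product on the other side. Mir144 (66 bases, chr11:78073005-78073070, plus strand) and Mir451a (72 bases, chr11:78073170-78073241, plus strand, both GRCm38) are 99 bases apart and overlap no protein-coding gene. The nearest other gene, Eral1, lies on the opposite strand, with its 3′ end 134 bases further on. The same 72 bases read on the minus strand are annotated as Mir451b, and mmu-miR-451b had 0 reads in all 36 libraries. The miR-486 genes lie on chromosome 8 on opposite strands of the same place: Mir486 (chr8:23142555-23142682, plus strand) and Mir3107, the source of miR-486b (chr8:23142573-23142662, minus strand), are inside an intron of Ank1 and overlap no exon of it. Reads of miR-486-5p cannot be assigned to either gene, and of the 3′ arms mmu-miR-486a-3p and mmu-miR-486b-3p are counted separately.

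The libraries held 655455 to 21870210 reads assigned to miRNAs. The lowest total belonged to library 35 (A537T, 10 weeks) and the next lowest was 4544257. At 10 weeks the TRAMP libraries held 4544257 to 13014486 reads, and those without TRAMP 12422946 to 18574473 apart from library 35. All 5 members had a read in each of the 36 libraries. Levels are given in RPM, the reads of a miRNA per 1000000 reads of all miRNAs in the library. miR-486-5p was the most abundant member, with a median of 428 RPM over the 36 libraries (range 63.8 to 1813), and stood between place 43 and place 174 among all miRNAs of a library. mmu-miR-451a had a median of 118 RPM (43.9 to 361). The other members were scarce, with medians of 7.14 RPM for mmu-miR-486a-3p (0.710 to 112), 3.79 RPM for mmu-miR-144-5p (1.10 to 7.94) and 1.53 RPM for mmu-miR-144-3p (0.156 to 9.41). mmu-miR-144-3p rested on 1 to 116 reads, so counting error alone was wide: the single read of library 9 (KO-TRAMP, 10 weeks) stood for 0.156 RPM with a 95% Wilson interval of 0.0276 to 0.886. The 5 members together took 0.0139% to 0.204% of the miRNA reads.

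Other tissues in the lobes varied between libraries, and their marker miRNAs were summed as shares of all miRNA reads. Epithelial markers (the miR-200 family, miR-375 and miR-205) held 3.70% to 9.89% of the reads in every library, as the tissue label asks. Skeletal muscle markers (miR-1a, miR-133, miR-206, miR-499 and miR-208b) held 9.73%, 19.05% and 30.7% in the 3 WT libraries of 10 weeks (28, 29 and 30), 0.736% to 13.7% in the KO and A537T libraries of 10 weeks and 0.187% to 3.09% in all other libraries. Stromal markers (miR-143, miR-145a and miR-199) ranged from 6.35% to 40.2%. The part of these tissues in the differences below was not tested. In bulk tissue, fewer red cells and less of a miRNA in each cell cannot be told apart.

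**Figure D1:**
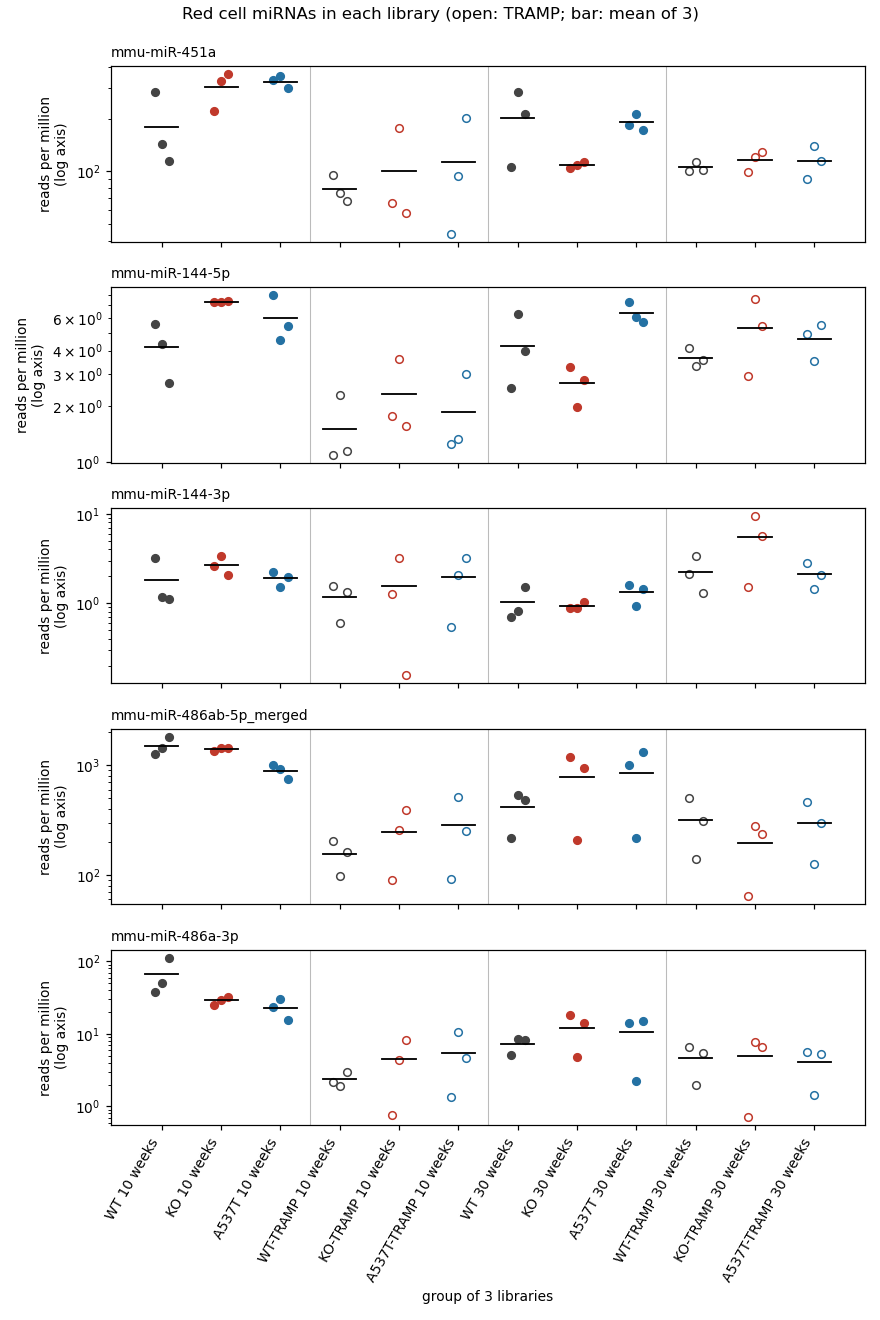
RPM (log axis) of each member in every library, with 3 points per group and a bar at their mean. Filled points are groups without TRAMP and open points groups with TRAMP, coloured by genotype. miR-486-5p runs from 749 to 1813 RPM at 10 weeks without TRAMP and from 89.9 to 519 RPM at 10 weeks with it.

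TRAMP at 10 weeks went with lower levels of 4 of the 5 members, while mmu-miR-144-3p did not pass the test. mmu-miR-451a was at 285, 144 and 114 RPM in WT and at 95.1, 75.3 and 68.0 RPM in WT-TRAMP. In KO it was at 223, 328 and 361 RPM, against 65.7, 178 and 57.5 RPM in KO-TRAMP. In A537T it was at 333, 351 and 300 RPM, against 43.9, 94.3 and 204 RPM in A537T-TRAMP. Within each genotype every TRAMP library was below every library without the transgene. Averaged over the 3 genotypes, mmu-miR-451a was 2.91-fold lower with TRAMP (log2 change -1.54 ± 0.24 (SE), adjusted p = 4.31e-06 in limma). Here and below, changes are on the log2(RPM + 0.5) scale and adjusted over all miRNAs of the comparison by the Benjamini-Hochberg method.

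mmu-miR-144-5p, the more abundant arm of miR-144, was at 5.56, 4.33 and 2.69 RPM in WT and at 1.10, 2.31 and 1.14 RPM in WT-TRAMP. The KO libraries lay within a narrow range, 7.27, 7.33 and 7.44 RPM, and the KO-TRAMP libraries were at 1.79, 3.61 and 1.56 RPM. In A537T the values were 7.94, 4.58 and 5.39 RPM, against 1.26, 1.33 and 3.00 RPM in A537T-TRAMP. The value of 4.58 RPM, from library 35, rested on 3 reads. Its 95% Wilson interval of 1.56 to 13.5 RPM includes the highest A537T-TRAMP value. The groups did not overlap in any genotype, and the averaged change was -1.42 ± 0.20 (SE, log2), a 2.68-fold lower level with an adjusted p of 1.25e-06 in limma. mmu-miR-144-3p, the arm usually described as the functional one, was at 1.11 to 3.38 RPM without TRAMP and 0.156 to 3.23 RPM with it. Its averaged change of -0.50 ± 0.30 (SE, log2) did not pass the test (limma adjusted p = 0.152), with a 95% interval from -1.13 to 0.12.

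miR-486-5p lost the most reads. It was at 1270, 1435 and 1813 RPM in WT and at 205, 97.1 and 162 RPM in WT-TRAMP. In KO the values were 1357, 1448 and 1435 RPM, against 89.9, 260 and 390 RPM in KO-TRAMP. In A537T they were 1004, 932 and 749 RPM, against 92.1, 519 and 250 RPM in A537T-TRAMP. No TRAMP library reached any library without TRAMP, over all 3 genotypes together, and the averaged change was -2.68 ± 0.41 (SE, log2), 6.41-fold lower (limma adjusted p = 4.31e-06). How many of all miRNAs were separated in this way over the 3 genotypes was not counted. The other arm, mmu-miR-486a-3p, went from 15.7 to 112 RPM without TRAMP to 0.765 to 10.7 RPM with it, a change of -3.21 ± 0.44 (SE, log2) or 9.28-fold (limma adjusted p = 6.53e-07). The product of the opposite strand, mmu-miR-486b-3p, was lower by the same test (log2 change -2.01 ± 0.28, adjusted p = 1.21e-06), and at most 14.4 RPM in any library.

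In all, 4 of the 5 members were called lower with TRAMP at 10 weeks in the average over genotypes (limma, adjusted p below the threshold of 0.05), where 39.6% of all miRNAs tested were called lower. The median change of all 586 miRNAs tested was -0.28 and that of the members -1.54, and with muscle miRNAs left out of the totals these medians were -0.43 and -1.70, with 114 miRNAs called higher and 257 lower in place of 139 and 232. The same 4 members were called in each genotype, where the share of all miRNAs called lower was 13.5% in WT, 25.6% in KO and 21.5% in A537T. In 12 of the 15 member comparisons within a genotype every TRAMP library was below every library without it, as was the case for 18.3% of all miRNAs in WT, 35.8% in KO and 32.1% in A537T. WT was also left out because its libraries held the most muscle reads, a choice made after the data were seen. The averages over KO and A537T were -1.77 for mmu-miR-451a, -1.52 for mmu-miR-144-5p, -2.35 for miR-486-5p and -2.62 for mmu-miR-486a-3p, and all 4 remained called (limma adjusted p from 2.14e-05 to 0.000408). KO libraries 31, 32 and 33 held 0.773%, 6.51% and 0.736% muscle reads and 1357, 1448 and 1435 RPM of miR-486-5p. The A537T libraries held 3.72% to 13.7% muscle reads, and the TRAMP libraries of 10 weeks 0.218% to 3.09%. Leaving out WT therefore left a difference in muscle reads in place, and the part of muscle was not tested. In A537T, miR-486-5p and mmu-miR-486a-3p were not called by edgeR or DESeq2 (adjusted p = 0.0544 to 0.148), and both calls were lost without library 4 (-1.30 and -1.60, log2), 34 (-1.87 and -2.25) or 35 (-1.92 and -2.06), that of miR-486-5p also without library 6 (-2.02) or 36 (-2.08). In WT the call of mmu-miR-451a (-1.09, adjusted p = 0.045) was lost in 15 of the 36 fits without 1 library, with the smallest change without library 28 (-0.70), and that of mmu-miR-144-5p without library 28 (-1.01) and in a limma fit of the 6 libraries alone (adjusted p = 0.0565). In KO both miR-486 calls were lost without library 7 (-2.15 for miR-486-5p and -2.17 for mmu-miR-486a-3p).

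Other miRNAs that are abundant in red cells but not restricted to them, a list of 8 (miR-16, miR-15a, miR-92a, miR-25, miR-93, miR-363, miR-185 and miR-107), differed from the members in direction. At 10 weeks 6 of the 8 were called higher with TRAMP and none lower, with a median change of 0.39, and their summed share was 0.586% to 0.954% with TRAMP and 0.273% to 0.376% without. miR-25-3p and miR-93-5p, which come from 1 host gene and are made in dividing cells of many kinds, were among them (2.27 ± 0.11 and 1.70 ± 0.11, SE, log2). With muscle miRNAs left out of the totals, 3 of the 8 were called higher. The endothelial and platelet markers miR-126a-3p and miR-126a-5p were both called lower, with a summed share of 0.493% to 1.11% with TRAMP and 1.24% to 1.86% without. All 7 muscle markers and all 4 stromal markers were called lower. Of the 6 epithelial markers 4 were called higher and 1 lower (2 and 1 with muscle miRNAs left out of the totals), and their summed share was 6.08% to 8.82% with TRAMP and 3.70% to 6.62% without. Of the 5 white blood cell markers, 2 were called higher (both arms of miR-142a) and 3 lower (miR-150, miR-223 and miR-155).

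**Figure D2:**
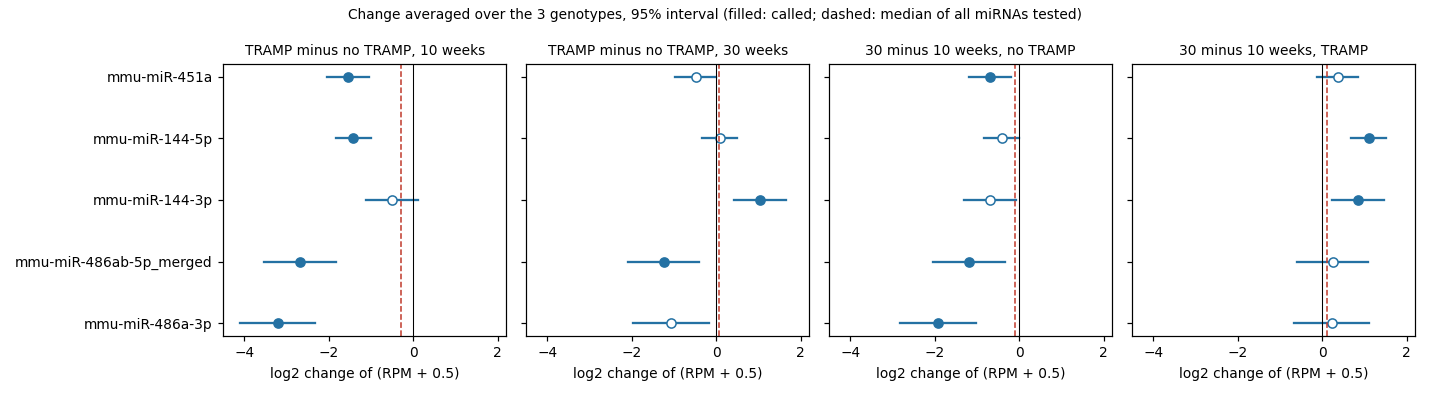
Log2 change of (RPM + 0.5) of each member averaged over WT, KO and A537T, with its 95% interval from limma, for TRAMP at 10 and 30 weeks and for 30 against 10 weeks without and with TRAMP. Filled points passed the adjusted test, and the dashed line is the median of all 586 miRNAs tested. At 10 weeks 4 members are filled and lie left of the line, between -1.42 and -3.21.

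At 30 weeks the members no longer moved together. mmu-miR-451a was at 106, 287 and 213 RPM in WT, 104, 109 and 113 RPM in KO and 185, 214 and 174 RPM in A537T. With TRAMP all 9 libraries were between 91.1 and 140 RPM. The averaged change was -0.49 ± 0.24 (SE, log2) and did not pass in limma (adjusted p = 0.105). The call was made with trimmed-mean (TMM) scaling (-0.58, adjusted p = 0.016), with edgeR and DESeq2 (-0.62 and -0.63, adjusted p = 0.00887 and 0.00308) and without WT library 19 (-0.62). mmu-miR-144-5p was at 1.99 to 7.27 RPM without TRAMP and 2.93 to 7.55 RPM with it, a change of 0.09 ± 0.20 (SE, log2, 95% interval -0.33 to 0.50). The 2 arms of miR-144 parted here, since mmu-miR-144-3p rose 2.05-fold with TRAMP (1.04 ± 0.30, SE, log2, limma adjusted p = 0.00732), from 0.704 to 1.60 RPM up to 1.29 to 9.41 RPM.

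miR-486-5p at 30 weeks was at 218, 539 and 482 RPM in WT, 1201, 210 and 936 RPM in KO and 1004, 219 and 1334 RPM in A537T. With TRAMP it was at 508, 139 and 311 RPM in WT-TRAMP, 63.8, 282 and 236 RPM in KO-TRAMP and 466, 125 and 299 RPM in A537T-TRAMP. Libraries within a group thus differed up to 6.10-fold, and ranges with and without TRAMP overlapped. The averaged change was -1.25 ± 0.41 (SE, log2), 2.37-fold lower (limma adjusted p = 0.0167), and that of mmu-miR-486a-3p was -1.07 ± 0.44 (SE, log2, adjusted p = 0.051), just outside the threshold, and called in 13 of the 36 fits without 1 library. Among all miRNAs 26.6% were called higher and 14.7% lower at this age, and among the members 1 was called in each direction. With TMM scaling 134 miRNAs were called higher and 111 lower in place of 156 and 86, and 3 members were called lower and 1 higher. Within a genotype, 2 calls were made in limma, both in KO-TRAMP against KO: mmu-miR-144-3p was 5.52 ± 3.95 RPM (SD, n = 3) against 0.938 ± 0.0913 RPM, and miR-486-5p was 194 ± 115 RPM against 782 ± 513 RPM. The share of all miRNAs called in that comparison was 31.9%, against 25.6% for WT-TRAMP and 9.73% for A537T-TRAMP, where no member was called. Of these calls mmu-miR-144-3p was lost without library 17 (1.29, log2), and miR-486-5p without library 16, 22 or 24 (-1.26, -1.45 and -1.63). Neither passed in a limma fit of the 6 libraries alone (adjusted p = 0.0806 and 0.143).

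White blood cell markers differed at 30 weeks, with 3 of 5 called higher with TRAMP and none lower, and a summed share of 0.0731% to 0.170% with TRAMP against 0.0234% to 0.0634% without. Of the list of 8 other red cell miRNAs, 6 were called higher and 1, miR-363-3p, lower, and with TMM scaling 5 and 2. Neither endothelial marker was called.

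Between 10 and 30 weeks without TRAMP, 3 members were called lower in the average over genotypes (limma), where 20.1% of all miRNAs were called lower. mmu-miR-451a changed by -0.69 ± 0.24 (SE, log2, 1.62-fold, adjusted p = 0.0258), miR-486-5p by -1.19 ± 0.41 (2.28-fold, adjusted p = 0.0277) and mmu-miR-486a-3p by -1.92 ± 0.44 (3.80-fold, adjusted p = 0.00108). mmu-miR-144-5p (-0.41 ± 0.20, adjusted p = 0.121) and mmu-miR-144-3p (-0.69 ± 0.30, adjusted p = 0.0831) did not pass. All 7 muscle markers were also called lower with age, and their summed share went from 0.736% to 30.7% at 10 weeks to 0.356% to 0.821% at 30 weeks. With muscle miRNAs left out of the totals all 5 members were called lower, the median of all miRNAs was -0.22 in place of -0.09, and 38 miRNAs were called higher and 170 lower in place of 70 and 118. With TMM scaling 97 were called higher and 111 lower. The call of mmu-miR-451a was lost without library 19, 28 or 33 (-0.56, -0.57 and -0.65) and that of miR-486-5p without library 19, 23 or 26 (-1.05, -0.93 and -0.92). Without the WT groups the changes of miR-486-5p (-0.80, adjusted p = 0.231) and mmu-miR-486a-3p (-1.40, adjusted p = 0.0521) no longer passed, while that of mmu-miR-451a was -1.12 (adjusted p = 0.00477). Leaving out WT was a choice made after the data were seen.

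The genotypes gave different values with age, although none of these differences between genotypes passed its own test. In KO, mmu-miR-451a was 304 ± 71.9 RPM at 10 weeks and 109 ± 4.19 RPM at 30 weeks (SD, n = 3), and mmu-miR-144-5p was 7.34 ± 0.0855 RPM and 2.67 ± 0.635 RPM. Both were called lower in limma (-1.45 ± 0.41 and -1.33 ± 0.35, SE, log2, adjusted p = 0.0168 and 0.0104), where 14% of all miRNAs were called. The first call was lost without library 23, 32 or 33 (-1.45, -1.38 and -1.32) and the second without library 23 (-1.16). In WT mmu-miR-451a was 181 ± 90.9 RPM and then 202 ± 91.3 RPM, and mmu-miR-144-5p was 4.19 ± 1.44 RPM and then 4.25 ± 1.88 RPM. The single member called in WT was mmu-miR-486a-3p (-2.97 ± 0.76, SE, log2, adjusted p = 0.0108), where 8.7% of all miRNAs were called, and it was lost without library 19 or 30 (-2.75 and -2.51). No member was called in A537T, where 13.1% were. The interaction of KO with age without TRAMP was -1.61 ± 0.58 for mmu-miR-451a and -1.31 ± 0.50 for mmu-miR-144-5p (SE, log2), with adjusted p = 0.197 for both in limma. Each was called without WT library 19 (-2.01 and -1.60), and mmu-miR-451a also without WT library 28 (-1.99).

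With TRAMP, age went with more miR-144. mmu-miR-144-5p was at 3.28 to 4.14 RPM in WT-TRAMP at 30 weeks against 1.10 to 2.31 RPM at 10 weeks. It was at 3.52 to 5.497 RPM against 1.26 to 3.00 RPM in A537T-TRAMP, and in KO-TRAMP at 2.93 to 7.55 RPM against 1.56 to 3.61 RPM. Only the KO-TRAMP ranges overlapped. The share of all miRNAs without overlap was not counted for these comparisons, so whether such separation was unusual was not tested. The averaged change was 1.10 ± 0.20 (SE, log2, 2.14-fold, limma adjusted p = 0.000224). mmu-miR-144-3p rose 1.80-fold (0.85 ± 0.30, adjusted p = 0.0413), a call that was lost in 10 of the 36 fits without 1 library, with the smallest change without library 9 (0.63). These 2 of 5 members were called higher, beside 18.6% of all miRNAs called higher (109 higher and 35 lower, and 82 and 62 with TMM scaling). mmu-miR-451a (0.36 ± 0.24, 95% interval -0.13 to 0.85), miR-486-5p (0.24 ± 0.41, -0.60 to 1.09) and mmu-miR-486a-3p (0.22 ± 0.44, -0.68 to 1.12) did not pass. Within a genotype both arms of miR-144 were called in KO-TRAMP, where 20% of all miRNAs were called, and no member in WT-TRAMP (6.83%) or A537T-TRAMP (3.58%). Both KO-TRAMP calls were lost without library 7, 9, 17 or 18, at 0.95 to 1.66 for mmu-miR-144-3p and 0.75 to 0.97 for mmu-miR-144-5p, with edgeR (adjusted p = 0.0571 and 0.058) and in a limma fit of the 6 libraries alone (0.325 and 0.267). mmu-miR-144-5p was close to the threshold in the other lines: in WT-TRAMP its change of 1.09 (limma adjusted p = 0.0603) was called with a pseudocount of 0.1, TMM scaling, edgeR, DESeq2 (adjusted p = 0.0193 to 0.0463), in the fit of the 6 libraries (0.0418) and in 7 of 36 fits without 1 library. In A537T-TRAMP its change of 1.18 (limma adjusted p = 0.0524) was called with DESeq2 (0.0442), with muscle miRNAs left out of the totals (0.0417) and in 8 such fits. All 5 white blood cell markers were called higher with age in TRAMP mice, with a median change of 1.24.

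The difference between the TRAMP effects at 30 and 10 weeks was tested as an interaction in the 36-library limma fit. Averaged over genotypes it was positive and called for mmu-miR-144-5p (1.51 ± 0.29, SE, log2, adjusted p = 0.00029), mmu-miR-144-3p (1.54 ± 0.43, adjusted p = 0.0083), mmu-miR-486a-3p (2.14 ± 0.62, adjusted p = 0.0102) and mmu-miR-451a (1.05 ± 0.34, adjusted p = 0.0185). For miR-486-5p it was 1.43 ± 0.59 with an adjusted p of 0.0574. The share of all miRNAs called was 34.5% (155 higher and 47 lower), with a median of 0.33 over all tested, and with TMM scaling 108 and 79, with a median of 0.14. For mmu-miR-451a the call was lost with edgeR (0.64, adjusted p = 0.0662) and DESeq2 (0.63, adjusted p = 0.0542). Within a genotype 3 members were called in KO (29.7% of all miRNAs), 1 in WT (8.87%) and none in A537T (1.88%). The KO call of mmu-miR-451a (1.86) was lost with edgeR and DESeq2 (adjusted p = 0.0507 and 0.0541) and without library 7, 9 or 18 (1.65, 1.55 and 1.78). The WT call of mmu-miR-486a-3p (3.71) was lost with no filter on low values (adjusted p = 0.0641) and without library 1, 2, 10, 12, 19 or 30 (3.25 to 3.67). None of the 8 interactions of a mutant line with TRAMP or with age was called for any member. The shares of all miRNAs called there were 0.512% for KO with TRAMP at 10 weeks, 9.04% for KO with TRAMP at 30 weeks, 0.171% for KO with age without TRAMP and 0% for KO with age with TRAMP. For A537T they were 0.171% for age with TRAMP and 0% for the other 3.

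In the mutant lines against their controls, no member was called in limma in any of the 8 comparisons, and 0% of all miRNAs were called in each. Of the 40 member comparisons 5 had an unadjusted p below 0.05, all at 10 weeks without TRAMP, and the smallest adjusted p was 0.322. Over all miRNAs, 16 to 110 of the 556 to 590 tested in a comparison had an unadjusted p below 0.05. mmu-miR-451a was higher in A537T than in WT in every library, at 300 to 351 RPM against 114 to 285 RPM (0.96 ± 0.36, SE, log2, adjusted p = 0.876). miR-486-5p and mmu-miR-486a-3p were lower in A537T than in WT without overlap (-0.75 ± 0.25 and -1.39 ± 0.46). In KO, mmu-miR-144-5p was above WT (0.79 ± 0.31) and mmu-miR-486a-3p below (-1.02 ± 0.41), also without overlap. These were 5 of the 40 member comparisons, and the others overlapped. The share of all miRNAs without overlap was not counted for the mutant lines, so whether such separation was unusual was not tested. The WT libraries of 10 weeks without TRAMP are the ones that held 9.73% to 30.7% muscle reads. From library 28 to 30, in the order of rising muscle share, mmu-miR-486a-3p rose (37.4, 49.9 and 112 RPM). mmu-miR-451a fell in that order (285, 144 and 114 RPM). The stromal share (30.4%, 15.5% and 7.204%) and the endothelial and platelet share (1.86%, 1.62% and 1.41%) fell in the same order. The part of each tissue was not tested.

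The counts of members called changed without library 28, 19 or 16. Without library 28, the WT library with the least muscle, 4 members were called in KO against WT at 10 weeks (mmu-miR-451a 1.21, mmu-miR-144-5p 1.00 and mmu-miR-144-3p 0.95 higher, mmu-miR-486a-3p -1.35, adjusted p = 0.0327 to 0.0456), as were 137 of the 583 miRNAs tested. mmu-miR-451a was then also called in A537T (1.35, adjusted p = 0.0482), beside 12 of 575. Without WT library 19 mmu-miR-451a was called lower in KO at 30 weeks (-1.18, adjusted p = 0.0072), beside 95 of 577 miRNAs, and without KO-TRAMP library 16 mmu-miR-144-3p was called higher in KO-TRAMP than in WT-TRAMP at 30 weeks (1.57, adjusted p = 0.0347), beside 195 of 592. With all libraries edgeR also called 0 miRNAs over the 8 comparisons, with 5 member comparisons and 9 to 113 miRNAs per comparison at an unadjusted p below 0.05. DESeq2 called 159 over the 8 comparisons, 0 of them members, with 10 member comparisons and 9 to 128 miRNAs per comparison below 0.05 unadjusted. The 95% intervals of the 40 changes reached from 0.374 to 2.04 on either side of the estimate (log2), with a median of 0.949.

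The order of the 12 groups differed between members. Over all 12, limma's F test was passed by mmu-miR-144-5p (adjusted p = 0.000109), mmu-miR-486a-3p (0.000122), mmu-miR-451a (0.000569) and miR-486-5p (0.000579), and by 68.9% of all miRNAs, and not by mmu-miR-144-3p (0.102). mmu-miR-451a was highest in A537T at 10 weeks (328 ± 25.7 RPM, SD, n = 3), followed by KO at 10 weeks (304 ± 71.9), and lowest in WT-TRAMP at 10 weeks (79.4 ± 14.02). miR-486-5p was highest in WT at 10 weeks (1506 ± 279 RPM), then KO (1413 ± 49.3) and A537T (895 ± 132) of the same age, and lowest in WT-TRAMP at 10 weeks (155 ± 54.4). mmu-miR-144-5p was highest in KO at 10 weeks (7.34 RPM) and mmu-miR-144-3p in KO-TRAMP at 30 weeks (5.52 ± 3.95 RPM). Along these orders most neighbours overlapped: all 11 neighbouring pairs for mmu-miR-451a and mmu-miR-144-3p, and 10 of 11 for the other members.

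Libraries of the same group showed which members varied together. Deviations of log2(RPM + 0.5) from the group mean were related over the 36 libraries, with 28 relations tested by permutation within groups and adjusted together. The arms of miR-486 went together most closely (Pearson r = 0.94, smallest possible permutation p = 1e-05, adjusted p = 0.00028, and Spearman rho = 0.92, p = 1e-05, r = 0.93 without the 2 libraries farthest from the median). mmu-miR-451a went with mmu-miR-144-5p (r = 0.64, permutation p = 0.00399, adjusted 0.0223, rho = 0.50, p = 0.0209, r = 0.58 without those 2) and with mmu-miR-144-3p (r = 0.62, permutation p = 0.00804, adjusted 0.025, rho = 0.50, p = 0.0182, r = 0.52). The arms of miR-144 had r = 0.58 (permutation p = 0.0155, adjusted 0.0396, rho = 0.50, p = 0.0229, r = 0.49), and 0.58 with an adjusted p of 0.051 without library 35. Between the loci no relation was called: mmu-miR-451a with miR-486-5p had r = 0.17 (permutation p = 0.474, adjusted 0.553, rho = 0.04, p = 0.84). By Spearman's rho, adjusted in the same way, the relations among mmu-miR-451a and the arms of miR-144 missed the threshold (adjusted p = 0.0584 each), while that of the arms of miR-486 passed (0.00028). All values of a library share its total as denominator.

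miR-486-5p varied with the markers of other tissues. It rose with the summed stromal markers (r = 0.72, permutation p = 0.00018, adjusted 0.00168, rho = 0.68, p = 0.00051, r = 0.70 without the 2 farthest libraries) and fell with the epithelial markers (r = -0.67, permutation p = 0.00016, adjusted 0.00168, rho = -0.68, p = 0.00029, r = -0.59). It also rose with the endothelial and platelet markers (r = 0.61, permutation p = 0.00534, adjusted 0.0237, rho = 0.44, p = 0.0362, r = 0.50) and the muscle markers (r = 0.43, permutation p = 0.01, adjusted 0.0281, rho = 0.45, p = 0.0111, r = 0.50). It fell with the list of 8 other red cell miRNAs (r = -0.59, permutation p = 0.00301, adjusted 0.0211, rho = -0.53, p = 0.00695, r = -0.56) and the white blood cell markers (r = -0.50, permutation p = 0.00678, adjusted 0.0237, rho = -0.51, p = 0.00679, r = -0.50). Of the same lists mmu-miR-144-5p was related to stroma alone (r = 0.60, permutation p = 0.00603, adjusted 0.0237, rho = 0.56, p = 0.00842, r = 0.54). For mmu-miR-451a no list passed the adjusted test, the nearest being stroma (r = 0.44, permutation p = 0.0367, adjusted 0.0856, rho = 0.31, p = 0.132, r = 0.38) and the list of 8 at r = 0.30 (permutation p = 0.202, adjusted 0.297, rho = 0.48, p = 0.02, r = 0.57). By adjusted rho the same relations with the lists passed (0.00406 to 0.0445), except that of miR-486-5p with the endothelial and platelet markers (0.0846). Whether the members differed from one another in these relations was not tested.

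Single libraries of some groups differed in miR-486-5p and in stromal share together. In KO at 30 weeks library 23 had 210 RPM of miR-486-5p where libraries 22 and 24 had 1201 and 936 RPM, and its stromal share was 12.9% against 29.8% and 27.5%. In A537T at 30 weeks library 26 had 219 RPM, where 25 and 27 had 1004 and 1334 RPM, with a stromal share of 17.1% against 27.3% in both others and an endothelial share of 0.723% against 1.27% and 1.29%. mmu-miR-451a was level in these groups, at 104 to 113 RPM and 174 to 214 RPM. In KO-TRAMP at 30 weeks library 16 had 63.8 RPM of miR-486-5p and a stromal share of 6.35%, against 34.3% and 24.7% in libraries 17 and 18. In the groups of 10 weeks without TRAMP miR-486-5p did not follow the stromal share. In WT the order was reversed, since library 30 had the highest miR-486-5p of all (1813 RPM) and a stromal share of 7.204% beside the highest muscle share. In A537T it was also reversed, at 1004, 932 and 749 RPM with 18.37%, 27.95% and 40.17% stromal reads. In KO library 32 had the highest miR-486-5p (1448 RPM) and the lowest stromal share (30.51%). KO library 33 had 1435 RPM and the highest stromal share of its group (36.12%). mmu-miR-451a went with the stromal share in some groups and against it in others. In WT at 10 weeks it was at 285, 144 and 114 RPM with 30.4%, 15.5% and 7.204% stromal reads. In WT at 30 weeks it was at 106, 287 and 213 RPM with 13.4%, 24.4% and 20.8%. In KO-TRAMP at 10 weeks its highest library (178 RPM) also had the highest stromal share (17.1%). The order was reversed in WT-TRAMP at 30 weeks (101, 113 and 102 RPM with 19.9%, 9.78% and 13.9%). It was also reversed in A537T-TRAMP at 30 weeks (91.1, 140 and 114 RPM with 19.5%, 9.45% and 14.3%).

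**Figure D3:**
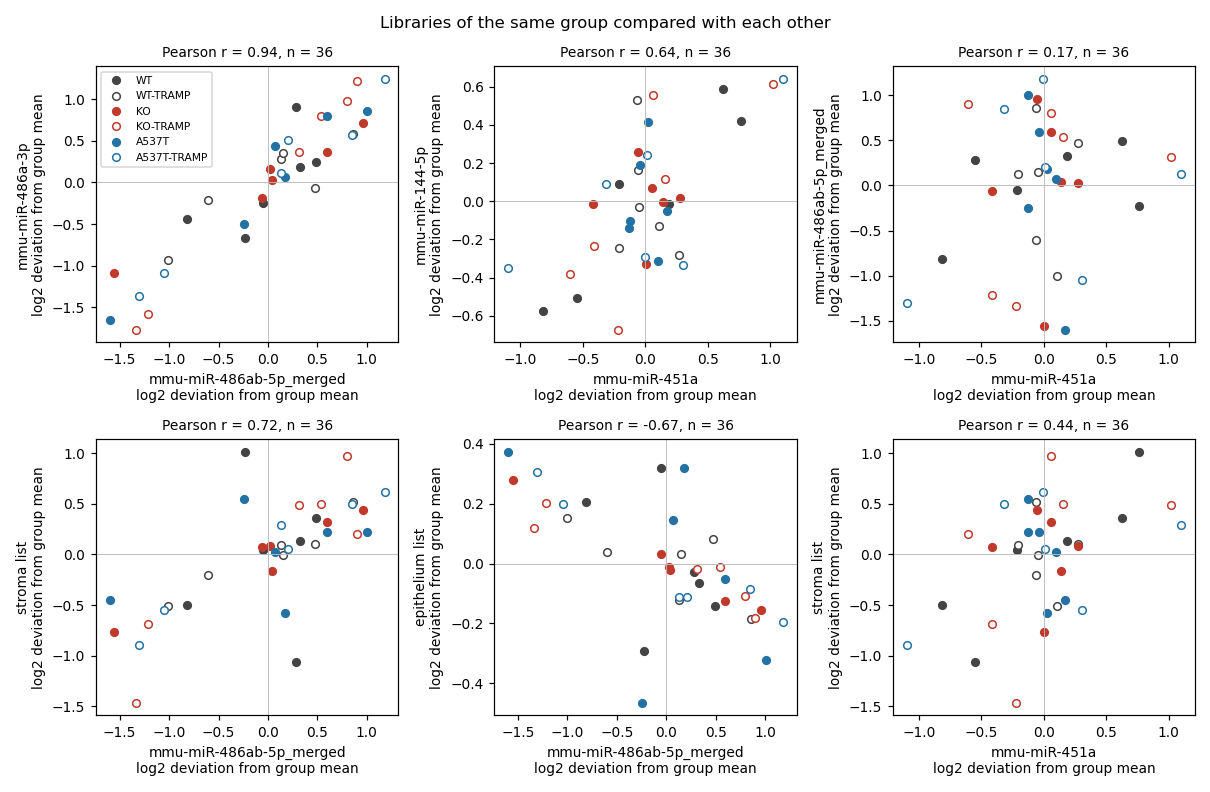
Deviation of each library from the mean of its group, in log2(RPM + 0.5), for 6 pairs of measures over 36 libraries. Filled points are libraries without TRAMP, open points libraries with it, and colours mark the genotype. The 2 arms of miR-486 lie along a line (r = 0.94), mmu-miR-451a goes with mmu-miR-144-5p (r = 0.64) and hardly with miR-486-5p (r = 0.17), and miR-486-5p rises with stromal and falls with epithelial markers (r = 0.72 and -0.67), with mmu-miR-451a against stromal markers at r = 0.44.

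Ratios between reads of the same library do not depend on its total. They were tested after their values had been seen, with two-sided exact permutation tests of 9 against 9 libraries (genotypes pooled) for 3 ratios in 4 comparisons, adjusted over the 12 tests, of which 3 passed. At 30 weeks the ratio of mmu-miR-144-5p to mmu-miR-144-3p was 2.23 to 7.58 without TRAMP (median 3.69) and 0.802 to 2.76 with it (median 1.94), a log2 difference of -1.22 (exact p = 0.000617, adjusted 0.0051). At 10 weeks it was 1.75 to 3.72 without TRAMP and 0.647 to 10 with it (log2 difference -0.85, exact p = 0.0784, adjusted 0.157). The value of 10 came from library 9 (KO-TRAMP), with 1 read of mmu-miR-144-3p. Library 35 (A537T without TRAMP) also had 1 read of this arm, and its ratio of 3 rested on 3 reads over 1. The ratio of miR-486-5p to mmu-miR-486a-3p was lowest at 10 weeks without TRAMP, at 16.1 to 53.5 (median 43.0), and there the lowest value was that of WT library 30, with the most muscle. It was 47.1 to 118 at 10 weeks with TRAMP (log2 difference 0.78, exact p = 0.000987, adjusted 0.0051) and 42.2 to 97.8 at 30 weeks without TRAMP (0.81, exact p = 0.00128, adjusted 0.0051). The ratio of miR-486-5p to mmu-miR-451a spanned 0.640 to 15.8 over all libraries, and none of its 4 comparisons passed (smallest exact p = 0.017, adjusted 0.051, for TRAMP at 10 weeks, log2 difference -1.13).

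**Figure D4:**
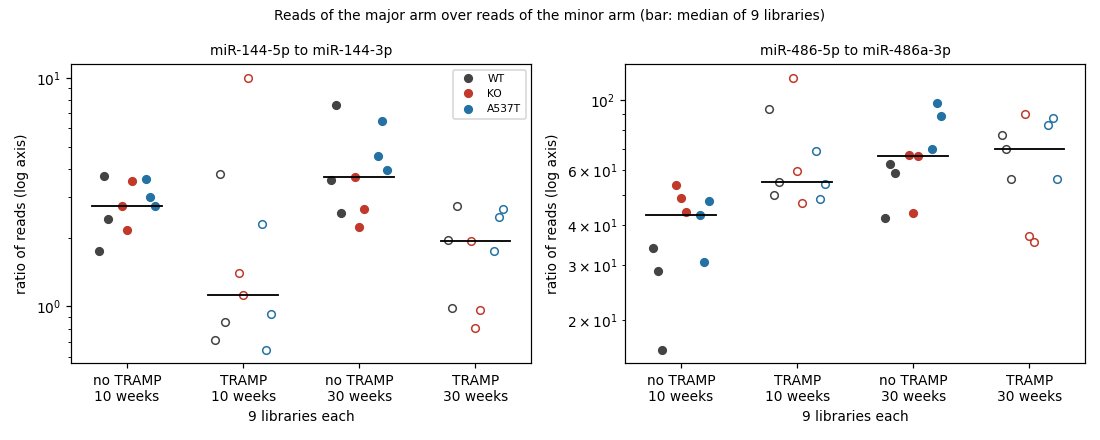
Reads of the 5′ arm over reads of the 3′ arm (log axis) for miR-144 and miR-486 in each library, by transgene and age, with 9 libraries in each column, genotypes side by side and a bar at the median. The median ratio of miR-144 is 2.76 and 3.69 without TRAMP at 10 and 30 weeks, and 1.12 and 1.94 with it.

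The miRNAs most like the members were sought among the other miRNAs with a mean of at least 10 RPM, by Pearson's r of log2(RPM + 0.5) over the 36 libraries, given as a description since libraries share groups and totals. For mmu-miR-451a they were mmu-miR-331-3p and mmu-miR-350-3p (r = 0.82 each) and mmu-miR-154-5p (r = 0.81), each above mmu-miR-144-5p (r = 0.77) and miR-486-5p (r = 0.60). For mmu-miR-144-5p they were mmu-miR-532-3p (r = 0.82), mmu-miR-350-3p (r = 0.80) and mmu-miR-331-3p (r = 0.77). For miR-486-5p they were mmu-miR-126a-3p, the endothelial marker (r = 0.82), mmu-miR-139-5p (r = 0.79) and mmu-miR-145a-5p, a smooth muscle marker of the stromal list (r = 0.79), while its own other arm had r = 0.95.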

How the data were processed

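The deposited tables hold a normalised signal per miRNA: the authors merged read pairs with BBMerge, counted them with mirDeep2 against GRCm38 and miRBase, summed entries of identical sequence and divided each of 8 tables of 6 libraries by DESeq2 size factors. The columns of the authors' own comparisons (fold changes and s-values) were not used. Dividing a column by its smallest value above 0 gave whole numbers for 100% of the values (tolerance 0.001), and the 12 control columns present in 2 tables gave identical reads. Column headers give no group, so groups rest on the tables that hold a column, with a column in both the KO and the Mut table of an age taken as their control and Mut read as A537T. These reads were scaled to RPM over each library's own sum. Tests used limma (3.58.1, with variance trend) on log2(RPM + 0.5) for miRNAs with a mean of at least 0.5 RPM. They used the 6 libraries of a mutant line and its control, and 1 fit of all 36 libraries otherwise. The tests were also run on simulated reads with known changes, with the same spread for every miRNA and no differences in tissue share. That spread was not matched to these libraries, so the simulation does not show how many real changes could be found here. edgeR (4.0.16) and DESeq2 (1.42.0) on the recovered reads were alternatives. Relations used 100000 permutations within groups. The study's methods call its replicates biological, so the 3 libraries of a group were taken as separate mice. Named miRNAs were the members, the other products of their loci, the marker lists and the 3 miRNAs most like each of 3 members. Members and lists were chosen with earlier results of these data known. Intervals of reads cover counting error only. All columns name 1 flow cell, and no other batch is given.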

Additional observations from a re-analysis of the deposited data

Results flagged for a closer look

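The effect of TRAMP differed between the ages for 8 results, each by the test of the difference itself (limma, adjusted over all miRNAs), with the difference given as the log2 change at 30 weeks minus that at 10 weeks. Averaged over genotypes it was 1.05 for mmu-miR-451a, 1.54 for mmu-miR-144-3p, 1.51 for mmu-miR-144-5p and 2.14 for mmu-miR-486a-3p. In KO mice alone it was 1.86 for mmu-miR-451a, 2.74 for mmu-miR-144-3p and 2.35 for mmu-miR-144-5p, and in WT mice alone 3.71 for mmu-miR-486a-3p. The share of all miRNAs called was 34.5% in the average, 29.7% in KO and 8.87% in WT. The averages include the differences in KO and in WT, so the 8 results are not separate from one another. The 2 calls for mmu-miR-451a were lost with edgeR and DESeq2, and that for mmu-miR-486a-3p in WT with no filter on low values and in 6 of 36 fits without 1 library. All 7 skeletal muscle markers (6 with TMM scaling) had a called difference of the same sign in the average over genotypes (median 3.12). The part of muscle in these differences was not tested.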

How the results depend on the processing

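Under settings other than leaving out 1 library, 294 values of the averaged comparisons and counts of members kept their direction and side of the threshold, 11 came to pass the test, 10 no longer passed, 5 counts moved by over 1.5 times and 2 changed sign. Members called for age within a genotype were 5, and 3 with no filter, 2 at a mean of at least 10 RPM (which removes both arms of miR-144) and 8 with DESeq2. That filter also gave 7 of 11 calls in the averages and 4 of 8 interactions. For TRAMP at 30 weeks mmu-miR-451a was called at -0.58 with TMM scaling, -0.62 with edgeR and -0.63 with DESeq2, and mmu-miR-486a-3p at -1.15, -1.20 and -1.20 and at -0.83 with a pseudocount of 2. For age without TRAMP, totals without muscle made calls of mmu-miR-144-3p (-0.81) and mmu-miR-144-5p (-0.55). Calls lost there were mmu-miR-451a with no filter (-0.69), mmu-miR-486a-3p in KO and A537T only (-1.40), and miR-486-5p with no filter (-1.19), edgeR (-0.79), DESeq2 (-0.78) and in KO and A537T only (-0.80). For age with TRAMP mmu-miR-144-3p was lost with no filter (0.85), TMM scaling (0.77), edgeR (0.87) and in KO and A537T only (0.92), where mmu-miR-486a-3p (-0.039) and miR-486-5p (-0.094), not called before, changed sign. The difference among the 12 groups was called for mmu-miR-144-3p with edgeR (adjusted p = 0.0252) and DESeq2 (0.00306).

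Leaving out 1 library at a time gave 0 to 5 members called for the mutant lines and 3 to 7 for age within a genotype. Values that changed side or sign ranged, for TRAMP at 10 weeks, from -0.70 to -0.29 (mmu-miR-144-3p). For TRAMP at 30 weeks they ranged from -0.0078 to 0.20 (mmu-miR-144-5p), -0.62 to -0.38 (mmu-miR-451a) and -1.34 to -0.78 (mmu-miR-486a-3p). For age without TRAMP they were -0.77 to -0.56 (mmu-miR-144-3p), -0.80 to -0.56 (mmu-miR-451a) and -1.36 to -0.92 (miR-486-5p), and for age with TRAMP 0.63 to 1.07 (mmu-miR-144-3p) and -0.045 to 0.51 (mmu-miR-486a-3p). The adjusted p of mmu-miR-144-3p for any difference among the groups ranged from 0.0127 to 0.308. On the recovered reads edgeR called 354 and 274 of 586 miRNAs for TRAMP at 10 and 30 weeks (limma 371 and 242), and 244 and 168 for age without and with TRAMP (limma 188 and 144). The causes of these changes were not tested. Averages over KO and A537T only, and ratios of arms, were chosen after seeing the data. Depth limited mmu-miR-144-3p most (1 to 116 reads). No paired analysis was possible because the column headers carry no replicate number.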
